A study of Mus musculus with 3 samples.

Results

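Interferon-stimulated genes were followed in the RNA of apoptotic bodies (ABs), the membrane-bound fragments that dying cells shed. The 9 genes Ifit1, Ifit2, Ifit3, Isg15, Irf7, Stat2, Oasl2, Rsad2 and Usp18 were taken by their GENCODE M21 symbols, and the reads of all their listed transcripts were summed per gene. All 9 had rows in the mRNA table, with 35 of its 56651 transcripts and 9 of its 16072 genes. The ABs came from bone marrow cells of C57BL/6 mice at week 11 in 3 libraries, 1 for each stage, so there were no replicates and no p-value is given. BMM-ABs came from bone marrow macrophages (BMMs), which had been grown with M-CSF at 50 ng/ml for 72 h and received no RANKL. pOC-ABs came from preosteoclasts, BMMs given M-CSF at 30 ng/ml and RANKL at 100 ng/ml for 24 h, and mOC-ABs from mature osteoclasts given the same factors for 72 h or longer. Labels say that every culture, BMMs included, was exposed to 500 μM alendronate for 12 h to make it shed ABs. The paper's text names staurosporine instead. The other doses and times above also come from the labels. In some of these the paper's text differs, with longer RANKL for mature osteoclasts, more M-CSF alongside RANKL and a shorter time of M-CSF for BMMs. Sample titles name the cells, while the design text speaks of ABs, and ABs is how the libraries are named here. The 3 comparisons were pOC-ABs against BMM-ABs (G1), mOC-ABs against BMM-ABs (G2) and mOC-ABs against pOC-ABs (G3), and each library enters more than 1 of them. Values of the libraries are listed below in the order BMM-ABs, pOC-ABs, mOC-ABs.

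Type I interferons bind the receptor chains IFNAR1 and IFNAR2, whose kinases phosphorylate STAT2. STAT2 and IRF9 are subunits of ISGF3, a complex that binds the interferon-stimulated response element (ISRE) in the promoters of its target genes. Among those targets are antiviral effectors, the factor IRF7, which drives further interferon genes, and USP18, which shuts the receptor off again. In the macrophage lineage, interferon-β made in response to RANKL is known to restrain osteoclast formation.

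The mRNA table held 9100082, 7387317 and 7705592 reads. Levels are given as CPM, a gene's reads relative to these totals, or, between genes, as FPKM, which also divides by transcript length. Of 16072 genes, 12820 had at least 20 reads over the 3 libraries, and these are called the tested genes below, although no statistical test could be run on single libraries. The summed level of 8 macrophage markers was highest in BMM-ABs, at 5798, 2777 and 1799 CPM, although Mertk had 0, 2 and 5 reads. That of 10 osteoclast markers was highest in mOC-ABs, at 345, 581 and 1870 CPM. Acp5, the tartrate-resistant acid phosphatase, had 88, 292 and 2157 reads, but the osteoclast integrin Itgb3 had 6, 3 and 0 and Calcr had no row. None of the 8 neutrophil and 5 erythroid markers had a row, and Cd3d, with at most 4 reads, was the only 1 of 6 T and NK cell markers with one. Among the B cell markers Ighm had 2193, 669 and 158 reads, while Cd79a and Cd79b had at most 4 and Ms4a1 had no row. Of 6 markers of plasmacytoid dendritic cells, which make much interferon, Siglech had 2, 1 and 0 reads, Ccr9 1, 2 and 0, Spib 4, 20 and 0, Pacsin1 0, 2 and 10 and the broadly expressed Tcf4 1048, 698 and 674, while Klk1 had no row. Of 6 conventional dendritic cell markers 3 had rows, summing to 85, 54 and 66 reads, and of 6 stromal markers 2 had rows, with 5, 0 and 2. The part of these marker changes in the values below was not tested. Fewer ABs from one kind of cell and less of an RNA in each AB cannot be told apart in such libraries.

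Together the 9 genes had 1441, 1323 and 1440 reads, or 158, 179 and 187 CPM. Irf7, Stat2 and Usp18, the regulators, carried most of them. Their FPKM lay between 11.8 and 44.2 in all 3 libraries, while the effectors Ifit1, Ifit2, Ifit3, Oasl2 and Rsad2 stayed between 0.223 and 3.75 and Isg15 stood between these groups, at 3.95 to 11.1. In BMM-ABs the FPKM of Usp18 (21.3, 95% counting interval 18.9 to 23.9), Stat2 (20.8, 19.2 to 22.6) and Irf7 (18.6, 16.6 to 20.7) could not be put in order, since the intervals overlapped. In pOC-ABs Irf7 was first at 44.2 (40.4 to 48.2), followed by Usp18 at 22.2 (19.6 to 25.1), and the intervals of Stat2 at 11.8 and Isg15 at 11.1 overlapped. In mOC-ABs the order was Irf7 at 40.7, Usp18 at 22.6 and Stat2 at 17.5, with intervals that did not overlap. Ifit1 and Ifit3 were low everywhere. Among the tested genes, the FPKM of Irf7 was at percentile 58.4, 82.2 and 80.8, and that of Ifit1 at percentile 5.0, 4.33 and 5.22. All counting intervals are exact 95% intervals of read counts (Poisson for a level, Clopper-Pearson for a ratio or a share). They cover counting error only, since no molecular identifiers are described. For FPKM, the interval of a gene's summed reads was multiplied by its FPKM per read. With several transcripts of unlike length, as in Irf7, Stat2 and Usp18, the result is approximate and can be too narrow. The FPKM orders above share this limit.

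**Figure D1:**
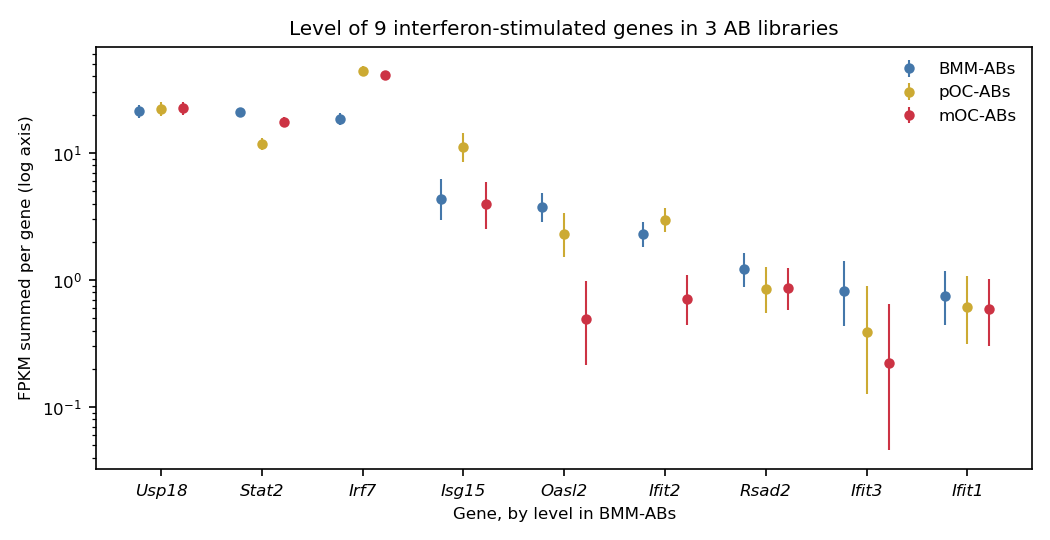
FPKM (log axis) of the 9 genes, each summed over its listed transcripts, in the 3 AB libraries. Points are single libraries and bars are exact 95% Poisson counting intervals of the gene's reads put on the FPKM scale. For genes with several transcripts these bars are approximate and can be too narrow. Irf7 stood at 18.6 in BMM-ABs against 44.2 in pOC-ABs and 40.7 in mOC-ABs, Isg15 was highest in pOC-ABs, and Ifit2 and Oasl2 were lowest in mOC-ABs.

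The transcription factors are described first, with each gene's position on GRCm38 as the span of its listed transcripts. Irf7 (chr7:141262706-141266481, minus strand) had 328, 505 and 591 reads, or 36.0, 68.4 and 76.7 CPM. It was low in BMM-ABs and high in both kinds of osteoclast-lineage ABs. Against BMM-ABs its log2 ratio was 0.92 (0.72 to 1.13) for G1 and 1.09 (0.89 to 1.29) for G2. The G3 value of 0.17 (-0.0078 to 0.34) was within counting error. Stat2 (chr10:128270559-128292849), a subunit of ISGF3, had 582, 341 and 474 reads, or 64.0, 46.2 and 61.5 CPM. It was lowest in pOC-ABs, where the G1 log2 ratio was -0.47 (-0.67 to -0.28) and the G3 log2 ratio 0.41 (0.21 to 0.62), while BMM-ABs and mOC-ABs did not differ beyond counting error (-0.056, -0.23 to 0.12). None of the Stat2 ratios was past 2-fold.

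Isg15 and Usp18 belong to one system, the attachment of the ubiquitin-like protein ISG15 to other proteins and its removal by the protease USP18. Isg15 (chr4:156199424-156200818) had 30, 62 and 23 reads, or 3.30, 8.39 and 2.98 CPM. It was high in pOC-ABs alone, at 2.55-fold the level of BMM-ABs (log2 ratio 1.35, 0.70 to 2.03) and with a G3 log2 ratio of -1.49 (-2.25 to -0.78). BMM-ABs and mOC-ABs were within counting error of each other (-0.14, -0.99 to 0.69). Usp18 (chr6:121245906-121270917) had 289, 263 and 280 reads, or 31.8, 35.6 and 36.3 CPM, in relative terms the narrowest range of the 9 genes. Its log2 ratios of 0.16 (G1, -0.082 to 0.41), 0.19 (G2, -0.048 to 0.44) and 0.030 (G3, -0.22 to 0.28) were all small, and a 2-fold difference lay outside each interval.

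The IFIT proteins are antiviral effectors, and their genes lie side by side on chromosome 19. Ifit2 (chr19:34550710-34576419) had 80, 84 and 21 reads, or 8.79, 11.4 and 2.73 CPM. It was low in mOC-ABs alone, with a log2 ratio of -1.69 (G2, -2.46 to -0.98) against BMM-ABs and -2.06 (G3, -2.83 to -1.36) against pOC-ABs. Between BMM-ABs and pOC-ABs the value was 0.37 (-0.088 to 0.83). Its neighbours had fewer reads. Ifit1 (chr19:34640871-34650009) had 18, 12 and 12 reads, with intervals around no difference in all 3 comparisons (G2 -0.34, -1.53 to 0.79). Ifit3 (chr19:34583531-34588731) had 13, 5 and 3 reads. Its log2 ratios were -1.08 (G1, -2.92 to 0.50), -1.88 (G2, -4.33 to -0.012) and -0.80 (G3, -3.48 to 1.56), so only the G2 interval left out equality, and by little. These intervals also held the Ifit2 value of each comparison, and a difference between both genes was not tested. Its reads cannot be assigned with certainty, because 51.2% of the 50-base stretches of the Ifit3 transcript also occur in Ifit3b, which had 8, 5 and 0 reads. For Ifit1 this share was 7.13%, with Ifit1bl2 and Ifit1bl1, for Isg15 3.96%, with AC151275.1, and for the main transcripts of the other 6 genes 0.

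Oasl2 and Rsad2 encode other antiviral effectors. Oasl2 (chr5:114896936-114912234), of the oligoadenylate synthetase-like family, had 59, 27 and 8 reads, or 6.48, 3.65 and 1.04 CPM. It was lower at each later stage, with log2 ratios of -0.83 (G1, -1.54 to -0.15), -2.64 (G2, -3.92 to -1.57) and -1.82 (G3, -3.16 to -0.64), and the 6.24-fold lower level in G2 was the largest difference among the 9 genes. Rsad2 (chr12:26442746-26456452), which encodes the radical SAM enzyme viperin, had 42, 24 and 28 reads, or 4.62, 3.25 and 3.63 CPM. Its total did not differ beyond counting error in any comparison, with log2 ratios of -0.51 (G1, -1.29 to 0.25), -0.34 (G2, -1.09 to 0.38) and 0.16 (G3, -0.68 to 1.01). Each of these intervals also held a 2-fold difference.

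**Figure D2:**
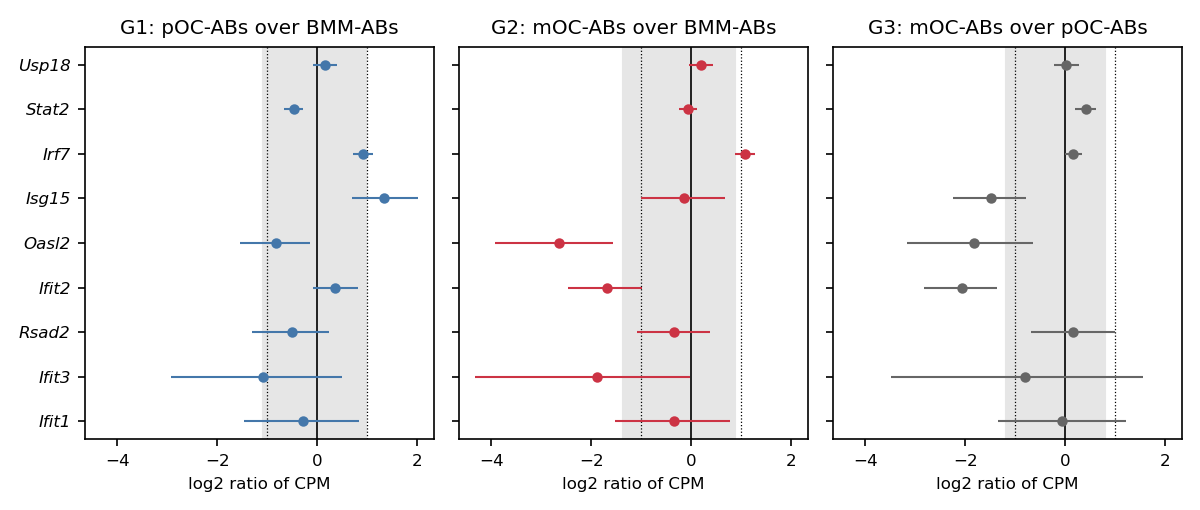
Log2 ratio of CPM for the 9 genes in G1, G2 and G3, with exact 95% counting intervals of single library pairs. Dotted lines mark 2-fold and the grey band runs from the 5th to the 95th percentile of the tested genes with reads in both libraries. Isg15 lay above the band in G1 and below it in G3, Irf7 lay above it in G2, and Ifit2 and Oasl2 lay below it in G2 and G3. Ifit3, with 21 reads in all, lay below it in G2 and at its lower edge in G1 (-1.08 against -1.07).

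Past the 2-fold limit of the study's methods, G1 had 1 gene higher (Isg15) and 1 lower (Ifit3) of 9, beside 4.97% of the 12820 tested genes higher and 6.22% lower. In G2 there were 1 higher (Irf7) and 3 lower (Ifit2, Ifit3 and Oasl2), beside 4.29% and 9.14%. In G3 there were 0 higher and 3 lower (Ifit2, Isg15 and Oasl2), beside 3.64% and 7.02%. These backgrounds rise as reads become few, and 6 of the 9 genes (all but Irf7, Stat2 and Usp18) had 200 reads or fewer over the 3 libraries. Among the 2946 genes with 20 to 200 reads, the shares past 2-fold were 13.5% higher and 13.9% lower for G1, 10.9% and 20.4% for G2, 10.3% and 19.3% for G3. All calls except that of Irf7 came from these 6 genes, so 3 of 6 lower in G2 and in G3 stand beside backgrounds of 20.4% and 19.3%. Irf7 belonged to the 9874 genes with over 200 reads, of which 2.33% were past 2-fold higher in G2. By the counting interval instead of the fold, G1 had 2 genes higher (Isg15 and Irf7) and 2 lower (Stat2 and Oasl2), beside 26.1% and 30.3% of all tested genes. G2 had 1 higher (Irf7) and 3 lower, beside 23.8% and 31.7%, and G3 had 1 higher (Stat2) and 3 lower, beside 21.9% and 27.1%. The 9 genes did not move as a block. Their median log2 ratios for G1, G2 and G3 were -0.28, -0.34 and -0.061, against -0.021, -0.053 and -0.048 over the tested genes with reads in both libraries. Single genes of the 9 ranged from -1.08 to 1.35, from -2.64 to 1.09 and from -2.06 to 0.41. Of 10840 ranked genes with at least 100 reads, the nearest to the G1 and G2 medians were Asb13, Stau1, Usp31, Kif22 and Clip2. Both medians were the values of Ifit1, which had 18, 12 and 12 reads, so these neighbours describe no shared course of the 9 genes.

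Single transcripts differed more than gene sums. Ifit1, Ifit2, Ifit3 and Isg15 had 1 listed transcript each, all protein-coding. Of the other 5 genes, Stat2 and Usp18 had the same leading transcript in all 3 libraries. Stat2 had 510, 330 and 445 reads on ENSMUST00000085708, 87.6%, 96.8% and 93.9% of its total, and Usp18 had 262, 246 and 263 on ENSMUST00000032198, or 90.7%, 93.5% and 93.9%. In Irf7, Oasl2 and Rsad2 the leading transcript differed between libraries. These are 2 of the 4 genes with several transcripts and at least 20 reads in every library (Irf7 and Rsad2), beside 26.6% of 8532 such genes in the table. Oasl2 fell under this minimum with 8 reads in mOC-ABs. The method that divided reads between overlapping transcripts is not given in the sources used here.

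Rsad2 showed the sharpest exchange. Its coding transcript ENSMUST00000020970 had 41, 23 and 0 reads, and was thus without a read in mOC-ABs. ENSMUST00000137792, annotated as a target of nonsense-mediated decay (NMD, which degrades mRNAs with an early stop codon), had 1, 1 and 28. All 28 reads in mOC-ABs (100%, 87.7% to 100%) were thus assigned to the NMD transcript, against 2.38% (0.060% to 12.6%) in BMM-ABs and 4.17% (0.11% to 21.1%) in pOC-ABs. A floor of 3 reads was put in place of 0 in mOC-ABs. By it the coding transcript was 11.6-fold lower there than in BMM-ABs and 8.0-fold lower than in pOC-ABs. These folds are no lower limits, since the counting intervals ended at log2 ratios of -3.17 (G2) and -2.58 (G3), which are smaller differences. What mainly sets the NMD transcript apart is an exon of 435 bases (chr12:26451973-26452407, minus strand) that the coding transcript lacks. Most of the rest is shared (4189 and 3782 bases in all), so many reads cannot tell the transcripts apart. The shares and their intervals therefore rest on the method that divided the reads, which is not given. The reading frame of the NMD transcript ends early in the exon of 435 bases. The stretch from the start of the exon to this stop is shown because it is the sequence that makes the transcript a predicted NMD target, from GENCODE M21 transcripts on GRCm38 (chr12:26452355-26452407, minus strand, 53 bases), with the stop codon in capitals.
Rsad2 NMD exon: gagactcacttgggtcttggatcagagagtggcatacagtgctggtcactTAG

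An NMD transcript of Oasl2 had more reads than any other of its transcripts in BMM-ABs and pOC-ABs. ENSMUST00000144064 had 32, 20 and 2 reads, which was 54.2% (40.8% to 67.3%), 74.1% (53.7% to 88.9%) and 25% (3.19% to 65.1%) of the gene. The coding transcript ENSMUST00000031542 had 15, 0 and 5 reads. With a floor of 3 reads in place of 0 it was 4.06-fold lower in pOC-ABs than in BMM-ABs. The counting interval of this G1 ratio ended at a log2 ratio of -1.54, which is a smaller difference. The NMD transcript leaves out an exon of 289 bases (chr5:114899742-114900030, plus strand), a length that is not a multiple of 3. The junction this makes is shown as its last 20 bases before the missing exon and the following exon up to the stop in the shifted frame, 71 bases in all (GRCm38, plus strand, between 114897843 and 114901290 with the intron left out), with the stop codon in capitals.
Oasl2 NMD junction: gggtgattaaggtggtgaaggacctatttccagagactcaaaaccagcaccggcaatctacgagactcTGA

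Irf7 reads were spread over 11 listed transcripts. The coding transcript ENSMUST00000026571 led in BMM-ABs and had 86, 76 and 41 reads. Another coding transcript, ENSMUST00000106023, led in pOC-ABs by reads and had 57, 121 and 144, while the coding ENSMUST00000097952 had 53, 58 and 152. These transcripts of one gene did not share a course. In mOC-ABs the lead passed to ENSMUST00000155744, a transcript with a retained intron, with 62, 62 and 210 reads or 18.9%, 12.3% and 35.5% of the gene. Its log2 ratio was 2.0 (1.58 to 2.43) for G2, and 1.70 (1.28 to 2.13) for G3. Others were frequent in pOC-ABs alone. The retained-intron transcript ENSMUST00000127161 had 2, 61 and 3 reads, and by FPKM, which divides by its shorter length, it led in pOC-ABs with 27.2% of the gene against 16.6% for ENSMUST00000106023. The NMD transcript ENSMUST00000209899 had 0, 40 and 0 reads. With a floor of 3 reads in BMM-ABs it was 16.4-fold higher in pOC-ABs than there. The counting interval of this G1 ratio began at a log2 ratio of 3.67, which is a smaller difference. ENSMUST00000210506, annotated as 1 exon of 3240 bases across the unspliced locus, had 56, 66 and 26. The share of Irf7 reads on protein-coding transcripts was nonetheless similar at both ends, 61.0% (55.5% to 66.3%) in BMM-ABs and 59.1% (55.0% to 63.0%) in mOC-ABs, with 52.3% (47.8% to 56.7%) in pOC-ABs. Reads on the coding transcripts alone were 200, 264 and 349. Irf7 overlaps the end of Phrf1 on the other strand by 45 bases, and no strand is given for the counts.

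Over the 9 genes, protein-coding transcripts held 82.0%, 77.6% and 78.2% of the reads, close to the 81.2%, 77.7% and 80.5% of the whole table. Transcripts with retained introns held 15.8%, 17.5% and 19.7%, against 5.23%, 4.21% and 3.85% in the whole table. Most of these reads were those of Irf7, and the whole table also holds genes with a single transcript.

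**Figure D3:**
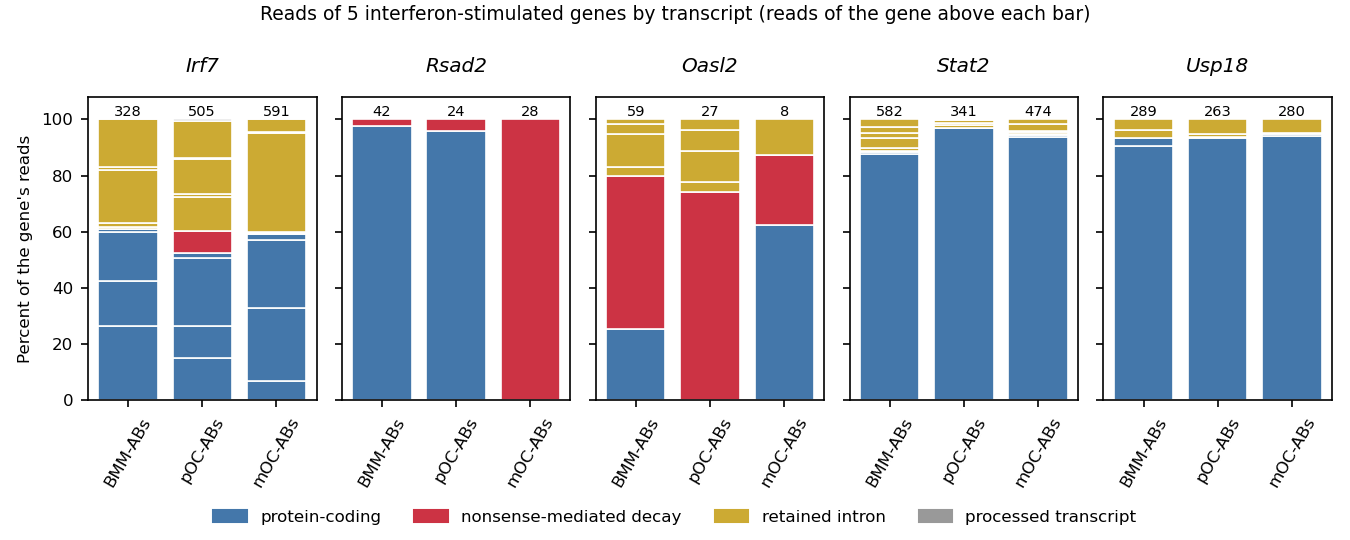
Percent of the reads of Irf7, Rsad2, Oasl2, Stat2 and Usp18 on each listed transcript in the 3 libraries. Each segment is 1 transcript, its colour is the GENCODE type and the number above a bar is the reads of the gene. All 28 Rsad2 reads of mOC-ABs were assigned to the NMD transcript, whereas Stat2 and Usp18 kept one coding transcript in front.

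Other RNA classes added little at these loci. Among 23718 lncRNA transcripts, 2 overlapped the genes. NONMMUT034526.2, which overlaps the 3′ end of Ifit2 (chr19:34575221-34576523) had 3, 2 and 1 reads, and the Gm44148 transcript antisense to Usp18 had 2, 9 and 2. None of the 1372 circRNA junctions named one of the 9 genes as host.

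Promoters were searched for the ISRE core, since ISGF3 binds it. The letters GAAA, any 2 bases and GAAA again, or TTTC, any 2 bases and TTTC on the other strand, were sought in RefSeq windows (GRCm38.p6) from 250 bases before to 50 bases after each gene's start. Windows were found for 8 of the 9 genes, Usp18 being the exception, and Ifit2 had 2. The core was present in 5 of these 8 genes (Ifit1, Ifit3, Isg15, Stat2 and Rsad2), against 3.44% of all 32851 windows. Isg15 had 3 overlapping matches, starting 78, 72 and 66 bases before the start, Ifit1 had 2 (104 and 85 bases before) and Ifit3 had 2 (156 and 122 bases before), while 0.225% of all windows had more than 1. Stat2 and Rsad2 had 1 match each, 222 and 120 bases before the start. Genes with the core did not have one direction, since Isg15 was high in pOC-ABs where Stat2 was low, and of the 4 genes past 2-fold in G2, Ifit3 had matches and Irf7, Ifit2 and Oasl2 had none in their windows. The element TTCNNNGAA, which STAT dimers bind, occurred in Ifit2 alone and in 8.30% of all windows. A match of letters is no evidence of binding. The 250 bases before the start are shown for the genes with more than 1 match, with the matches in capitals, from Isg15 (chr4:156200819-156201068, minus strand), Ifit1 (chr19:34640639-34640888, plus strand) and Ifit3 (chr19:34583279-34583528, plus strand).
Isg15 promoter: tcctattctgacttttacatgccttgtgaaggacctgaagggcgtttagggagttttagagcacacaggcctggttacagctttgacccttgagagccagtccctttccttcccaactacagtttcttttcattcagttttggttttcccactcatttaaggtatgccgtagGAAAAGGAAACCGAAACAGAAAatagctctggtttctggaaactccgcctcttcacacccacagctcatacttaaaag
Ifit1 promoter: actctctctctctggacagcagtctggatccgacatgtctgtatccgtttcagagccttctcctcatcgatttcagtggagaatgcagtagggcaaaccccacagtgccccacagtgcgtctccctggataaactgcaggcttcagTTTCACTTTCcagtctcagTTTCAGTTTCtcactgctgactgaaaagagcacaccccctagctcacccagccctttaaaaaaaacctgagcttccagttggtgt
Ifit3 promoter: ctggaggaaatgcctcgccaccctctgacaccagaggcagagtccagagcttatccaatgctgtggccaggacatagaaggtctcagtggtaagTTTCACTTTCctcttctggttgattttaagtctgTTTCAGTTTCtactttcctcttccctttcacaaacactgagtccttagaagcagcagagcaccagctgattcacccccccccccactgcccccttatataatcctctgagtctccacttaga

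The remaining interferon pathway was read from lists of 119 genes, of which 101 had rows and 95 had at least 20 reads. In G1, 1 of the 95 was past 2-fold higher and 9 were lower, beside the 4.97% and 6.22% of all tested genes. In G2 there were 2 higher and 21 lower, beside 4.29% and 9.14%, and in G3 1 and 14, beside 3.64% and 7.02%. Their median log2 ratios for G1, G2 and G3 were -0.15, -0.43 and -0.16. The same shares of all tested genes apply to the single lists below, which hold few genes each.

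Upstream of the 9 genes, none of 10 interferon ligand genes had a row, Ifnb1 included, in a table that lists transcripts found in at least 1 library. Both receptor chains were lower in osteoclast-lineage ABs, though within 2-fold. Ifnar1 had 715, 301 and 366 reads (log2 ratio -0.95 in G1, -1.15 to -0.75), and Ifnar2 had 721, 341 and 323 (-0.78, -0.97 to -0.59). Irf9, the DNA-binding subunit of ISGF3, had 413, 306 and 263 reads (-0.41 in G2, -0.64 to -0.18). Of the 10 genes for receptors, kinases and STATs, Ifngr1 alone, the ligand-binding chain of the interferon-γ receptor, was past 2-fold lower in G1 and G2, with 280, 97 and 98 reads.

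Among 6 further interferon regulatory factors only Irf8, which specifies macrophages and restrains osteoclasts, was past 2-fold, with 1330, 431 and 207 reads (log2 ratio -2.44 in G2), opposite in sign to Irf7. Of 15 nucleic acid sensors and adaptors tested, 2 were past 2-fold lower in G1 (Tlr9 and Unc93b1) and 3 in G2, beside 6.22% and 9.14% of all tested genes. Those 3 were the RNA sensor Tlr7 with 588, 352 and 74 reads, the DNA sensor Tlr9 with 219, 72 and 67, and the kinase Ikbke with 341, 180 and 81. Of the 4 genes of ISG15 conjugation, which supply the enzymes for Isg15, none was past 2-fold. Ube2l6, the E2 enzyme, had 297, 468 and 386 reads (log2 ratio 0.96 in G1, 0.74 to 1.17), while the E1 enzyme Uba7 had 445, 204 and 279 (-0.82, -1.07 to -0.58). Of 5 negative regulators, Socs3 was past 2-fold lower in G2, with 499, 221 and 99 reads.

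Of 13 other OAS, IFIT, MX and IFITM effectors tested, 0 were past 2-fold higher in any comparison, and those lower numbered 2 for G1, 4 for G2 and 3 for G3. Of all tested genes, 4.97%, 4.29% and 3.64% were higher in G1, G2 and G3, and 6.22%, 9.14% and 7.02% were lower. The 4 in G2 were Mx2 (81, 33 and 17 reads), Ifitm1 (19, 4 and 3), Ifitm3 (2442, 1951 and 1010) and Ifitm6 (277, 416 and 107). Of 37 other type I interferon response genes, 2 were lower in G1 (Cmpk2 and Lgals3bp), 9 were lower and 1 higher in G2, and 5 were lower in G3, beside the same shares. The antiviral nucleotide kinase Cmpk2, the neighbour of Rsad2, had 117, 39 and 32 reads, so it was lower in pOC-ABs and mOC-ABs, and Cxcl10, a chemokine, had 28, 12 and 7. Parp14 had 692, 376 and 200 reads, Lgals3bp 1150, 363 and 322, Phf11d 193, 142 and 49, Xaf1 85, 64 and 31, and Slfn8 210, 107 and 78. The exception was Ifi27, with 590, 721 and 1135 reads (log2 ratio 1.18 in G2). Of 5 genes tested among interferon-γ-induced GTPases and class II control, Ciita, the master regulator of MHC class II, had 23, 2 and 4 reads. Igtp had 41, 33 and 15, while Gbp7 had 5, 10 and 23 and was past 2-fold higher in all 3 comparisons. Ciita and Gbp7 had only 29 and 38 reads over the 3 libraries, so their calls rest on few reads.

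**Figure D4:**
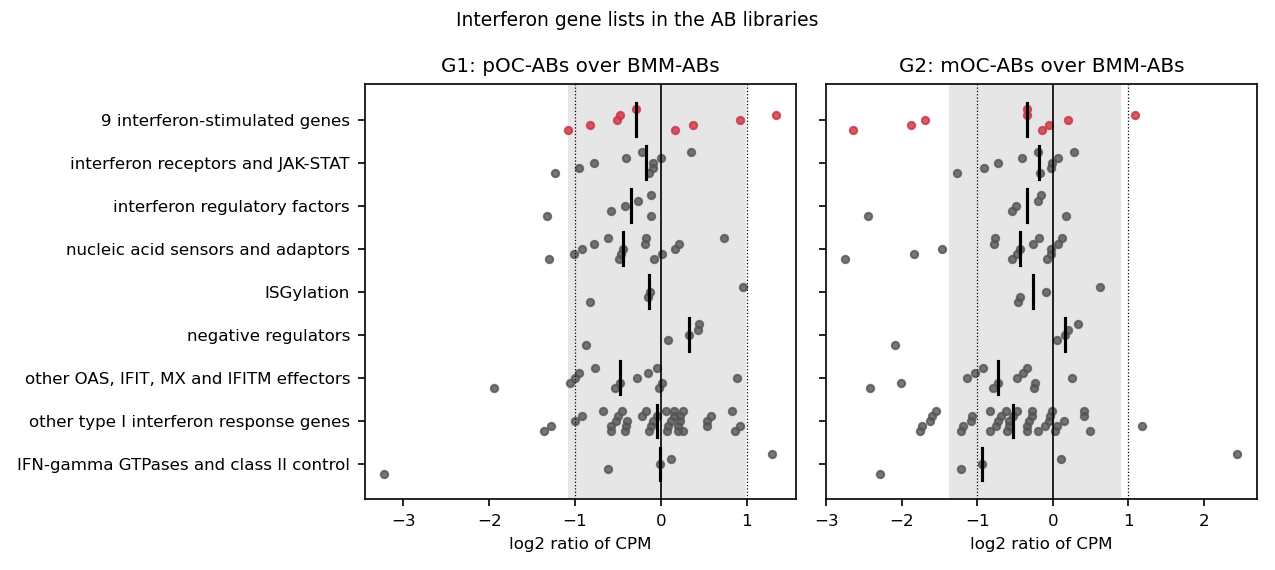
Log2 ratio of CPM in G1 and G2 for the 9 genes (red) and the other interferon genes with at least 20 reads (grey), by list. Each point is 1 gene, black bars are list medians and dotted lines mark 2-fold. The grey band runs from the 5th to the 95th percentile of the tested genes with reads in both libraries. The medians of the 9 genes, -0.28 in G1 and -0.34 in G2, lay inside the band, as did those of every other list.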

How the data were processed

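Reads of polyadenylated RNA from 3 AB libraries were processed by the authors, whose submitters' processing notes name FastQC, HISAT2, StringTie and GRCm38 without versions or roles; the counting tool and annotation are not given in the sources used here. The deposited mRNA table holds whole-number counts and FPKM per transcript, and these FPKM were found to divide by the mRNA total alone. The deposited circRNA table holds junction counts and a score that the authors made by dividing them by 1 constant per library (not used). Gene symbols came from GENCODE M21, counts were summed per gene and divided by mRNA totals, and genes with at least 20 reads over the libraries were tested against a 2-fold limit. With 1 library per group no count test was possible, so exact 95% counting intervals (scipy 1.17.1) are given. Their code was run on simulated counts with Poisson error alone. Such intervals cover that error by construction, so the run cannot test them for variation between cultures or in assigning reads. A fold against 0 reads uses a floor of 3 reads in that library and is no lower limit of the difference. Main transcripts were the first 3 of a gene by summed reads and any with at least 10% of its reads in a library. Genes named outside the 9 were the 20 interferon genes with the largest ratio past 2-fold in G1 or G2, Irf9, Ifnar1, Ifnar2, Ifnb1 and Ifit3b, and the 5 genes of nearest pattern; Uba7, Ube2l6, Unc93b1, Ifitm3 and the NMD transcript of Irf7 were added after their values were seen. The genes and lists were chosen with earlier results of these data known. Alternatives were other scalings, FPKM, protein-coding transcripts alone, a pseudocount of 1 read and other limits.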

Additional observations from a re-analysis of the deposited data

How the results depend on the processing

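No paired analysis was possible because there is 1 library per group. Scaling to mRNA and lncRNA reads together shifted the median log2 ratio of all tested genes by -0.20 in G1, by -0.10 in G2 and by 0.099 in G3, and every other setting by under 0.1. Of 185 member ratios recomputed with reads in both libraries, 179 kept their sign and 177 stayed within their counting interval. Part of this was fixed in advance, since each scaling adds the same constant to every log2 ratio of a comparison. For Ifit1, Ifit2, Ifit3 and Isg15, with a single listed transcript each, FPKM and protein-coding transcripts repeat the main ratio. Among these 185, 4 crossed the 2-fold limit and none past the limit reversed. Those 4 were Ifit3 in G1 with a pseudocount (-0.92), Irf7 in G1 by FPKM (1.25), and, with mRNA and lncRNA totals, Oasl2 in G1 (-1.03) and Irf7 in G2 (0.99). Ratios with 0 reads in a library were left out of these counts. With protein-coding transcripts alone they were Oasl2 in G1 and G3 and Rsad2 in G2 and G3. Oasl2, past 2-fold lower in G3 by all its reads, then had the opposite direction, with 0 coding reads in pOC-ABs and 5 in mOC-ABs. Rsad2 had 0 coding reads in mOC-ABs.

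The count of the 9 genes higher in G1 became 2 by FPKM, at the 1.5-fold limit and by the counting interval. Lower in G1 it became 2 with mRNA and lncRNA totals, with protein-coding transcripts, at 1.5-fold and by the interval, and 0 with a pseudocount. Higher in G2 it became 0 with mRNA and lncRNA totals, and higher in G3 it became 1 with protein-coding transcripts and by the interval. Lower in G2 it became 4 with protein-coding transcripts, and lower in G3 it became 4 at 1.5-fold. Without a read filter the backgrounds for G1, G2 and G3 were 8.94%, 7.88% and 7.13% higher and 10.6%, 13.9% and 12.3% lower, and at 1.5-fold they were 14.0%, 10.5% and 8.90% higher and 15.8%, 19.6% and 15.5% lower. For the other interferon genes, those higher in G1 became 0 by FPKM and with at least 100 reads and 2 with protein-coding transcripts, and those lower in G1 became 17 with mRNA and lncRNA totals and 14 with protein-coding transcripts. In the remaining settings those lower in G1 numbered from 6 (at least 100 reads) to 10 (another scaling). Those higher in G2 became 1 with at least 100 reads and 3 with protein-coding transcripts. Those higher in G3 became 2 with mRNA and lncRNA totals, 3 with protein-coding transcripts and 0 with at least 100 reads. Those lower in G2 ranged from 17 (at least 100 reads) to 24 (mRNA and lncRNA totals). Those lower in G3 ranged from 10 (mRNA and lncRNA totals) to 16 (another scaling). The cause of these changes was not tested. The count of genes with differing leading transcripts was also 3 by FPKM, but the leader of Irf7 in pOC-ABs changed from the coding ENSMUST00000106023 to the retained-intron ENSMUST00000127161. Of 54 shares of transcripts, 22 left their counting interval when taken from FPKM. The backgrounds by reads, the interval rule and the read minimum for leading transcripts were chosen after seeing the data. Few reads limit Ifit1, Ifit3 and Rsad2, for which a 2-fold difference lies inside the intervals of all 3 comparisons. It also lies inside some intervals of other genes, such as those of Oasl2 in G1 and G3.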
